A study of Mus musculus with 6 samples.

Results

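The genes described here were the Wnt ligands, their Frizzled (Fzd) receptors, and the secreted Frizzled-related proteins (Sfrp) and Dickkopf proteins (Dkk) that inhibit them. They were taken as every probe set, the set of oligonucleotides that reads 1 transcript on an Affymetrix array, whose single gene symbol in the platform annotation starts with Wnt, Fzd, Sfrp or Dkk followed by a number. This gave 75 of the 45037 probe sets, standing for 38 of the 18193 genes named by a single symbol: 19 Wnt genes, 11 Fzd genes including the antisense transcript Fzd10os, 4 Sfrp genes and 4 Dkk genes. The rule used names only and no measured value.

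The samples were 6 pools of whole mouse lung RNA, each of 3 mice (18 mice in all) and each on 1 array, and every group had 1 female and 1 male pool. The 8 weeks and 1 week groups were SM22-dnBMPR2 inducible transgenic mice, in which a dominant-negative type II BMP receptor is expressed from SM22, a promoter of smooth muscle cells, and had been activated for 8 or 1 weeks. All transgenic mice had raised right ventricular pressure at sacrifice, per the series description. The control male pool was labelled SM22-rtTA only, meaning that it carried the transactivator without the receptor transgene. The control female pool was labelled only as FVB/N, and the series description calls the controls transactivator-only. The labels used here give no ages, no strain for the other 5 pools and no exposure of the controls to the inducer.

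Wnt proteins are lipid-modified secreted ligands that bind Frizzled receptors at the cell surface. With the co-receptors Lrp5 and Lrp6 they stabilise beta-catenin, which activates target genes with Tcf and Lef factors, whereas ligands such as Wnt5a also act through Ror2, planar polarity and calcium. Sfrp proteins resemble the ligand-binding part of a Frizzled receptor and bind Wnts, and Dkk proteins act mainly on Lrp5 and Lrp6. In the lung, Wnt signals take part in development of the airway epithelium, smooth muscle and vessels.

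The promoters of Fzd4 and Wnt4 are shown because these members had the largest differences between 8 weeks and 1 week of activation, and because BMP signalling, the pathway the transgene targets, acts through Smad proteins that can bind the GC-rich sequence GGCGCC. Each window runs from 250 bases before to 50 bases after the gene's start on the plus strand in RefSeq's GRCm38.p6 annotation, at chr7:89404116-89404415 for Fzd4 and chr4:137277385-137277684 for Wnt4, and capitals mark GGCGCC.
Fzd4: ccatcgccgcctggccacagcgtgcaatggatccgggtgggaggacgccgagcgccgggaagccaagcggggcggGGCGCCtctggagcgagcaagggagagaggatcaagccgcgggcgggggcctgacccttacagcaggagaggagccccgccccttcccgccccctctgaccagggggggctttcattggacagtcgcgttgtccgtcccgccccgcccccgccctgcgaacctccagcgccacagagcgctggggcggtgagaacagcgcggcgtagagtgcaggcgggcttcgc
Wnt4: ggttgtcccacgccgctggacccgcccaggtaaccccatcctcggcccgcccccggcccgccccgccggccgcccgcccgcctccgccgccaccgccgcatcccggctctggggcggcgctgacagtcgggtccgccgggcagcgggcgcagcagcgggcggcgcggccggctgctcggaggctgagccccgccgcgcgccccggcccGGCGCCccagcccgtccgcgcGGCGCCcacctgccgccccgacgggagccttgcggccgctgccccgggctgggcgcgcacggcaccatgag

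The Fzd4 window held 1 match and the Wnt4 window 2 matches, and 72.7% of the bases were G or C for Fzd4 and 84.3% for Wnt4. GGCGCC, which reads the same on both strands, was present in 10 of 28 windows of member genes (35.7%), against 11.9% of all 32851 windows of this length. The 10 genes were Fzd4, Fzd9, Fzd10, Wnt2, Wnt2b, Wnt3a, Wnt4, Wnt7a, Wnt9a and Wnt11. The median G and C content was 68.7% in member windows, against 52.7% in all windows. The Tcf and Lef core CTTTGA, searched as CTTTGA and its reverse complement TCAAAG, was in 4 member windows (14.3%, in Dkk1, Fzd1, Wnt5b and Wnt11), against 16% of all windows. Any window on chr18 was left out for the member genes but not for the set of all windows. Windows were used for 25 of the 38 genes, and a match describes the letters only.

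Levels are given as log2 intensity after quantile normalization of the 6 arrays, which gives all arrays the same distribution of values. Values under 15.46 (log2 3.95) were raised to that floor, and probe sets with a mean log2 level above 5.15 were kept for testing, 27022 of 45037. Of the members, 39 probe sets for 22 genes were kept: 13 for 9 Wnt genes, 18 for 9 Fzd genes, 6 for 3 Sfrp genes and 2 for Dkk3. The other 36 probe sets were dim, with a highest level of 5.59 in any pool, and 6 of them were at the floor in every pool. No probe set of Wnt1, Wnt2b, Wnt3, Wnt6, Wnt8a, Wnt8b, Wnt9b, Wnt10a, Wnt10b, Wnt16, Fzd9, Fzd10, Sfrp5, Dkk1, Dkk2 or Dkk4 was kept. Of the pairs that are next to each other in the genome, both Wnt3a and Wnt9a were kept, and neither gene of Wnt6 with Wnt10a, Wnt9b with Wnt3 or Wnt10b with Wnt1. Just inside the limit were Sfrp1 1460187_at (mean 5.19), Fzd6 1458904_at (5.33) and Sfrp4 1451031_at (5.37), and just outside it were Wnt10b 1426091_a_at (5.02) and Wnt9b 1443197_at (4.95).

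The median deposited intensity was 50.49 and 52.92 in the 8 weeks female and male pools, 60.22 and 57.1 in the 1 week pools, and 63.41 and 61.43 in the control pools. Bmpr2, the receptor whose signalling the transgene blocks, was at 11.79 and 11.84 in the 8 weeks female and male pools, 11.85 and 12.14 in the 1 week pools, and 11.99 and 12.15 in the control pools by its brightest probe set. This difference at 8 weeks did not pass the test (log2 difference -0.26, adjusted p = 0.327). Bmpr2 1419616_at was at 7.73 and 7.68 in the 8 weeks pools, 7.92 and 8.47 in the 1 week pools, and 8.67 and 8.60 in the control pools (-0.93 at 8 weeks, adjusted p = 0.108, and -0.44 at 1 week), and 1441652_at differed by 0.01 at 8 weeks. None of the 3 passed, and the labels do not say whether a Bmpr2 probe set also reads the transgene. Differences were tested with limma, in a model of all 6 arrays with a term for group and a term for sex, and Benjamini-Hochberg adjustment over the 27022 kept probe sets, at an adjusted p below 0.05. Each group had 1 pool of each sex, so the error measured how far the female and male differences departed from each other.

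At 8 weeks, the members with the largest differences from control were the receptor gene Fzd4, which was lower, and the inhibitor gene Sfrp1, which was higher. The probe sets of each gene differed in size. The brightest of Fzd4 was at -0.31, and 1 of the 4 kept for Sfrp1 was lower than control in males (-0.65). Wnt5a was higher by 2 of its 3 kept probe sets and Fzd6 by 1 of its 3. None of the 39 member probe sets passed the adjusted threshold, where 0.596% of all kept probe sets did (161, of which 56 were higher and 105 lower). At an unadjusted p below 0.05 there were 8 members, 7 higher and 1 lower, where the background over all kept probe sets was 23.0% (11.8% higher and 11.2% lower). The 7 include Fzd6 1458904_at, which was tested only because the transgenic pools raised its mean over the limit. The smallest adjusted p among the members was 0.0589, for Sfrp1. These genes were singled out after their values were seen, because the rule for naming genes by their brightest probe set named no gene at 1.5-fold or more.

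Among all members, 5 probe sets differed by 1.5-fold or more at 8 weeks, against 17.3% of all kept probe sets. Both 8 weeks pools lay above both control pools for 10 members and below them for 9, against 23.0% higher and 18.8% lower in the background. Fzd6 1458904_at, among these 5 and these 10, was tested only because the transgenic pools raised its mean over the limit. The median log2 difference over the members was 0.04, against 0.03 over all kept probe sets, and the range over the members was -1.65 to 1.16. The median size of a difference, without its sign, was 0.26 for the members and 0.25 for all kept probe sets. In all, 24 members were higher (61.5%, against 53.9% of all kept probe sets) and 15 lower. With the intensities as deposited and no quantile normalization, 13 were higher (33.3%, against 34.1%) and 26 lower. The median over all kept probe sets then moved to -0.13. Relative to that shift Fzd4 stayed lower (-1.78) and Sfrp1 stayed higher (0.90 for its most different probe set).

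**Figure D1:**
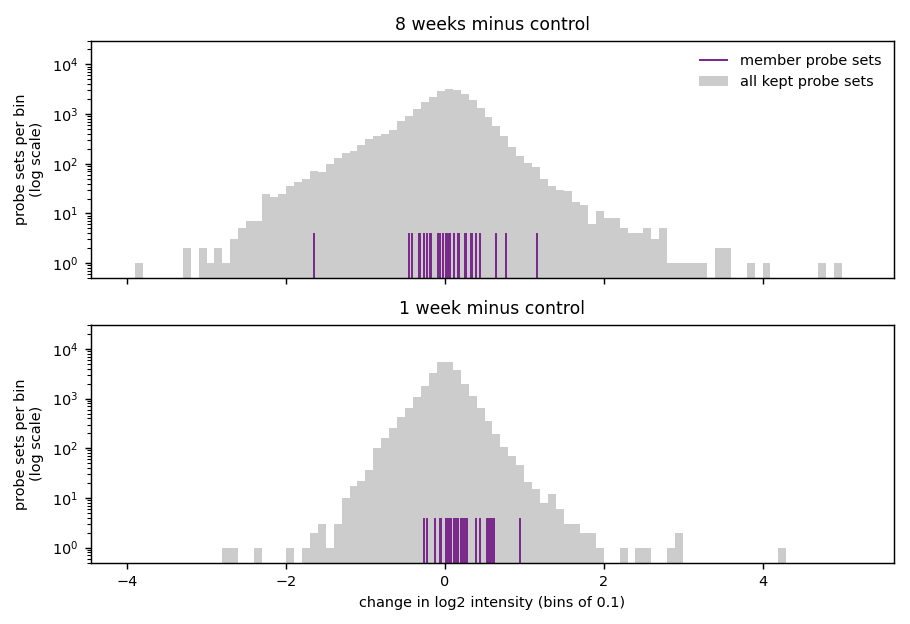
Number of kept probe sets (grey bars, log scale) by log2 difference from control at 8 weeks (top) and 1 week (bottom), with the 39 member probe sets as coloured lines whose height has no meaning. At 8 weeks most members lay near 0, with Fzd4 at -1.65 and Sfrp1 at 1.16 at the ends.

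At 1 week, 0 members passed, and 0% of all kept probe sets did. At an unadjusted p below 0.05 there were 7 members, all higher than control, where the background was 5.50% (3.03% higher and 2.47% lower). The smallest adjusted p among the members was 0.894, and the median log2 difference was 0.13 against 0.00 over all kept probe sets. Of the member probe sets, 31 were higher (79.5%, against 50.9% of all kept probe sets) and 8 lower than control. As deposited, 23 were higher (59%, against 38.4%) and 16 lower, with a median of 0.06 for the members and -0.05 over all kept probe sets. Several probe sets of 1 gene count separately here. Both 1 week pools lay above both control pools for 6 members and below them for 1, against 12.5% and 11.1% in the background. A difference of 1.5-fold or more was reached by 3 members, against 4.49% of all kept probe sets. Of these 3, Sfrp1 1460187_at was tested only because the 1 week pools raised its mean over the limit. Fzd6 1458904_at, among the 7 members and among the 6 above both control pools, was tested only through the transgenic pools.

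**Figure D2:**
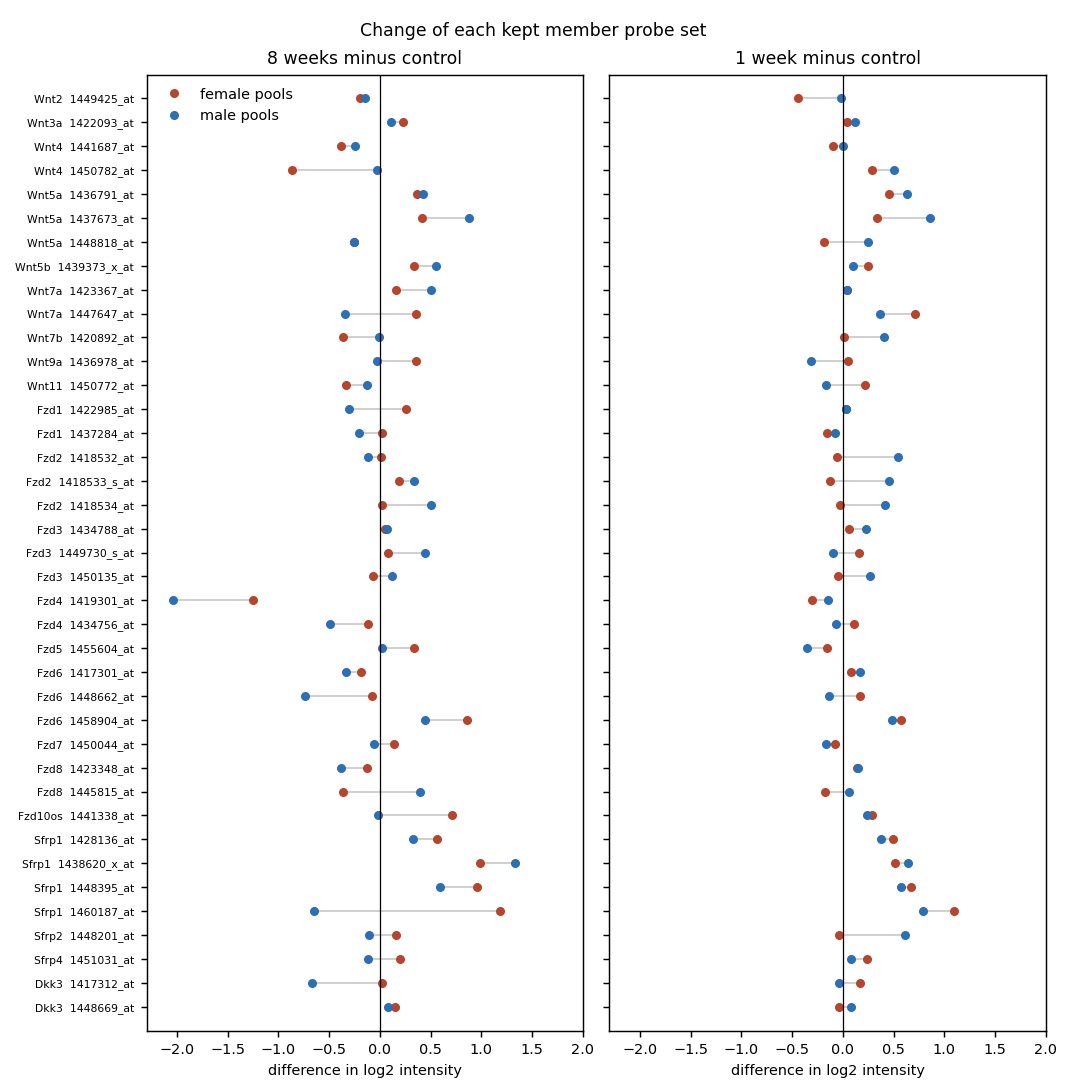
Log2 difference from control of each kept member probe set at 8 weeks (left) and at 1 week (right), with 1 point for the female and 1 for the male pools joined by a line. The lowest values were those of Fzd4 1419301_at at 8 weeks (-1.25 in females and -2.04 in males), and Sfrp1 1460187_at at 8 weeks lay on opposite sides of 0 (1.18 and -0.65).

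Among the ligands, Wnt5a, which signals mainly outside the beta-catenin route, had 3 kept probe sets that did not behave alike. Wnt5a 1437673_at was at 6.50 and 6.82 in the 8 weeks female and male pools, 6.43 and 6.80 in the 1 week pools, and 6.10 and 5.93 in the control pools. All 4 transgenic pools lay above both control pools. The log2 difference was 0.64 ± 0.18 at 8 weeks (SE, n = 2 pools, 1.56-fold, adjusted p = 0.148) and 0.60 ± 0.18 at 1 week (1.51-fold, adjusted p = 0.894), by limma. As deposited the 8 weeks value was 0.36, and without the male control pool it was 0.40 at 8 weeks and 0.35 at 1 week.

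The brightest Wnt5a probe set, 1436791_at, was at 6.58 and 7.12 in the 8 weeks female and male pools, 6.67 and 7.34 in the 1 week pools, and 6.21 and 6.71 in the control pools. Its groups overlapped, but within each sex both transgenic pools were above the control pool. The limma log2 difference was 0.39 ± 0.13 at 8 weeks (adjusted p = 0.183, and 0.13 as deposited) and 0.55 ± 0.13 at 1 week (adjusted p = 0.894). Wnt5a 1448818_at pointed the other way at 8 weeks, with 5.92 and 5.97 in the 8 weeks pools, 5.99 and 6.48 in the 1 week pools, and 6.18 and 6.23 in the control pools. Both 8 weeks pools of this probe set were below both control pools (log2 difference -0.26, limma adjusted p = 0.417).

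Wnt4, with roles in epithelial and mesenchymal tissues, was the kept ligand that differed most between the durations. Wnt4 1450782_at was at 5.98 and 6.73 in the 8 weeks female and male pools, 7.13 and 7.27 in the 1 week pools, and 6.85 and 6.77 in the control pools. The 1 week pools were highest, the 8 weeks pools lowest, and no groups overlapped. The difference between 8 weeks and 1 week was -0.84 ± 0.24 (1.79-fold, limma adjusted p = 0.191). It was -0.47 without the female 8 weeks pool and -1.21 without the male one. Its other kept probe set, 1441687_at, was at 6.49 and 6.50 in the 8 weeks pools, 6.77 and 6.76 in the 1 week pools, and 6.87 and 6.76 in the control pools. It was lower at 8 weeks than at 1 week by both pools, but by less (-0.27, limma adjusted p = 0.353).

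Wnt2, a ligand of the lung mesenchyme, was the only kept member with all 4 transgenic pools below both control pools. It was at 8.47 and 8.45 in the 8 weeks female and male pools, 8.22 and 8.57 in the 1 week pools, and 8.67 and 8.59 in the control pools. The margin was small, with log2 differences of -0.17 at 8 weeks and -0.23 at 1 week (limma adjusted p = 0.564 and 0.953). Wnt7a was at 7.08 and 7.26 in the 8 weeks pools, 6.96 and 6.81 in the 1 week pools, and 6.92 and 6.77 in the control pools by 1423367_at, with the 8 weeks pools highest (0.33 ± 0.16, limma adjusted p = 0.284). By 1447647_at, Wnt7a was at 7.17 and 7.20 in the 8 weeks pools, 7.53 and 7.91 in the 1 week pools, and 6.82 and 7.54 in the control pools, so its probe sets did not rank the groups alike.

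The remaining ligands did not pass at either duration. Wnt5b, a close relative of Wnt5a, was at 6.06 and 5.39 in the 8 weeks female and male pools, 5.97 and 4.94 in the 1 week pools, and 5.72 and 4.84 in the control pools (0.44 ± 0.15 at 8 weeks, limma adjusted p = 0.185). Wnt3a, a strong activator of beta-catenin, was at 7.46 and 7.51 in the 8 weeks pools, 7.27 and 7.53 in the 1 week pools, and 7.23 and 7.40 in the control pools. Wnt7b, made by lung epithelium, was at 5.74 and 6.42 in the 8 weeks pools, 6.11 and 6.84 in the 1 week pools, and 6.11 and 6.44 in the control pools. Wnt3a, Wnt7b, Wnt9a and Wnt11 differed from control by log2 -0.23 to 0.17 at 8 weeks and -0.13 to 0.21 at 1 week.

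**Figure D3:**
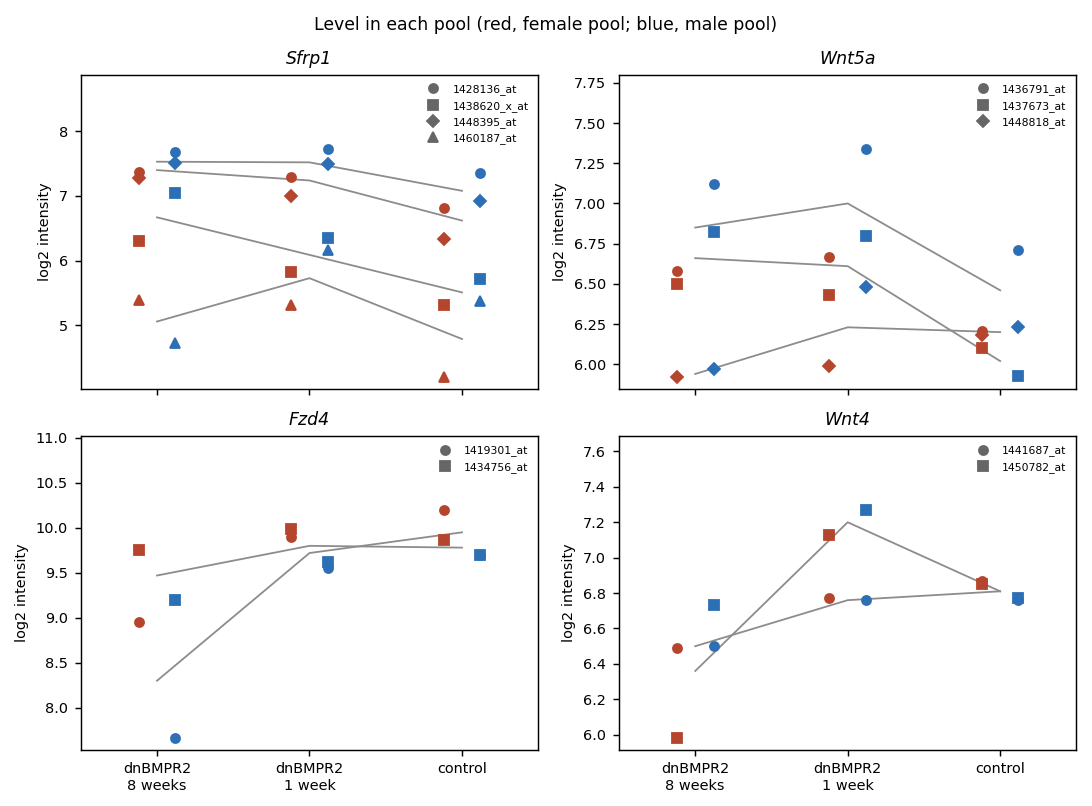
Log2 intensity of the kept probe sets of Sfrp1, Wnt5a, Fzd4 and Wnt4 in each of the 6 pools (red, female; blue, male), with lines through the group means and an axis of its own for each gene. The Fzd4 1419301_at pools at 8 weeks (8.95 and 7.66) lay below all other pools, and the Sfrp1 1438620_x_at pools at 8 weeks (6.31 and 7.04) lay above both control pools (5.32 and 5.71).

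Among the receptors, Fzd4, which also binds the ligand norrin and acts in vessel growth, had the largest difference of all kept members. Fzd4 1419301_at was at 8.95 and 7.66 in the 8 weeks female and male pools, 9.90 and 9.55 in the 1 week pools, and 10.20 and 9.70 in the control pools. Group means were 8.30 ± 0.91, 9.72 ± 0.25 and 9.95 ± 0.36 for 8 weeks, 1 week and control (SD, n = 2 each). Both 8 weeks pools lay below the other 4 pools. The log2 difference from control was -1.65 ± 0.26 (SE, 3.13-fold, limma adjusted p = 0.0752), at -1.25 in females and -2.04 in males. Against 1 week it was -1.42 ± 0.26 (2.67-fold, limma adjusted p = 0.13), while 1 week differed from control by -0.23 (adjusted p = 0.985).

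The brightest Fzd4 probe set, 1434756_at, showed a smaller difference. It was at 9.75 and 9.20 in the 8 weeks female and male pools, 9.99 and 9.62 in the 1 week pools, and 9.87 and 9.70 in the control pools. The 8 weeks and control pools overlapped, and the log2 difference was -0.31 ± 0.15 (limma adjusted p = 0.302). The remaining Fzd4 probe set, 1449416_at, was dim although it was designed from the same source sequence as 1419301_at.

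Fzd6, a receptor of the planar polarity branch, had probe sets in both directions. Fzd6 1458904_at was at 5.52 and 5.66 in the 8 weeks female and male pools, 5.23 and 5.70 in the 1 week pools, and 4.66 and 5.22 in the control pools. All 4 transgenic pools were above both control pools (0.65 ± 0.16 at 8 weeks, 1.57-fold, limma adjusted p = 0.124, and 0.53 ± 0.16 at 1 week, adjusted p = 0.894). Its control mean of 4.94 was under the limit of 5.15, so it was kept only through the transgenic pools (means of 5.59 at 8 weeks and 5.46 at 1 week). Fzd6 1417301_at, the brightest, was at 9.02 and 9.10 in the 8 weeks pools, 9.28 and 9.61 in the 1 week pools, and 9.21 and 9.43 in the control pools. Fzd6 1448662_at was at 6.06 and 5.47 in the 8 weeks pools, 6.31 and 6.08 in the 1 week pools, and 6.14 and 6.21 in the control pools. For both of these the 8 weeks pools were lowest, at -0.26 (limma adjusted p = 0.332) and -0.41 (adjusted p = 0.291) from control.

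The other Frizzled receptors differed little. Fzd7 was at 8.63 and 9.07 in the 8 weeks female and male pools, 8.42 and 8.96 in the 1 week pools, and 8.50 and 9.13 in the control pools. Fzd5, which can pair with Wnt5a and other ligands, was at 7.74 and 7.79 in the 8 weeks pools, 7.23 and 7.42 in the 1 week pools, and 7.39 and 7.78 in the control pools. Its 8 weeks pools were above the 1 week pools (0.44, limma adjusted p = 0.236), with control overlapping both. The kept probe sets of Fzd1, Fzd2, Fzd3 and Fzd8 differed from control by log2 -0.26 to 0.26 at 8 weeks and -0.12 to 0.24 at 1 week. The antisense transcript Fzd10os differed by 0.34 at 8 weeks (limma adjusted p = 0.411), and Fzd10 itself was dim.

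Among the inhibitors, Sfrp1 was higher than control by its 3 brightest probe sets in both sexes at both durations, by log2 0.44 to 1.16 at 8 weeks and 0.44 to 0.62 at 1 week. Its 2 dimmest probe sets did not follow this at 8 weeks. Sfrp1 1438620_x_at was at 6.31 and 7.04 in the 8 weeks female and male pools, 5.83 and 6.35 in the 1 week pools, and 5.32 and 5.71 in the control pools. Group means were 6.67 ± 0.51, 6.09 ± 0.36 and 5.51 ± 0.28 for 8 weeks, 1 week and control (SD, n = 2 each). All 4 transgenic pools were above both control pools, and within each sex the order was 8 weeks, 1 week, control. The log2 difference was 1.16 ± 0.15 at 8 weeks (SE, 2.23-fold, limma adjusted p = 0.0589) and 0.57 ± 0.15 at 1 week (1.49-fold, adjusted p = 0.894). The suffix _x_at marks a probe set whose probes may also match other transcripts.

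Sfrp1 1448395_at carries no such suffix and was at 7.28 and 7.51 in the 8 weeks female and male pools, 7.0 and 7.49 in the 1 week pools, and 6.33 and 6.92 in the control pools. Again all 4 transgenic pools were above both control pools, by 0.77 ± 0.15 at 8 weeks (1.71-fold, limma adjusted p = 0.0957) and 0.62 ± 0.15 at 1 week (1.54-fold, adjusted p = 0.894). The brightest Sfrp1 probe set, 1428136_at, was at 7.37 and 7.68 in the 8 weeks pools, 7.30 and 7.73 in the 1 week pools, and 6.82 and 7.35 in the control pools. Its difference was 0.44 ± 0.14 at 8 weeks (limma adjusted p = 0.164) and 0.44 at 1 week, where the 1 week and control pools overlapped.

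The dimmest kept Sfrp1 probe set, 1460187_at, was at 5.39 and 4.73 in the 8 weeks female and male pools, 5.31 and 6.16 in the 1 week pools, and 4.20 and 5.38 in the control pools. At 8 weeks it was higher than control in females (1.18) and lower in males (-0.65). Its mean passed the limit of 5.15 only through the 1 week pools (means of 5.06 at 8 weeks, 5.73 at 1 week and 4.79 in control). This was the largest difference between the sexes among the members in the sex by transgene test (1.07, limma adjusted p = 1). Sfrp1 1416594_at, which was not kept, was at 3.95 and 4.87 in the 8 weeks pools, 4.87 and 5.44 in the 1 week pools, and 4.79 and 5.27 in the control pools. It was lower than control at 8 weeks in both sexes (-0.62 and limma adjusted p = 0.237 with no filter), with 1 pool at the floor. Sfrp1 1460187_at, 1448395_at and 1416594_at were designed from the same source sequence, so they are not independent readings of the gene.

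None of the other inhibitors passed at either duration. Sfrp2, a relative of Sfrp1, was at 5.87 and 5.81 in the 8 weeks female and male pools, 5.66 and 6.54 in the 1 week pools, and 5.70 and 5.93 in the control pools. Sfrp4 was at 5.74 and 4.94 in the 8 weeks pools, 5.78 and 5.14 in the 1 week pools, and 5.54 and 5.06 in the control pools. Dkk3, a Dickkopf relative that does not bind Lrp5 and Lrp6 like the others, was at 9.10 and 8.68 in the 8 weeks pools, 8.91 and 8.68 in the 1 week pools, and 8.96 and 8.60 in the control pools by its brightest probe set (0.11 at 8 weeks). Dkk3 1417312_at was at 8.37 and 7.31 in the 8 weeks pools, 8.53 and 7.94 in the 1 week pools, and 8.36 and 7.98 in the control pools (-0.33 at 8 weeks, limma adjusted p = 0.391), with the difference at 0.02 in females and -0.67 in males. For these 3 genes the 8 weeks and control pools overlapped in every kept probe set.

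Between 8 weeks and 1 week, 0 members passed and 0% of all kept probe sets did. At an unadjusted p below 0.05 there were 7 members, 2 higher and 5 lower at 8 weeks, against 18.5% in the background (9.32% higher and 9.18% lower), and the smallest adjusted p was 0.13, for Fzd4. The 8 weeks pools were above the 1 week pools for 3 members and below them for 8, against 20.7% and 17.7% of all kept probe sets. With all transgenic pools set against control, 0 members passed and 0% of all kept probe sets did, and 7 members, 6 higher and 1 lower, had an unadjusted p below 0.05 against 14.0% in the background (6.95% higher and 7.09% lower). All 4 transgenic pools were above both controls for 4 members (2 probe sets of Sfrp1 and 1 each of Wnt5a and Fzd6) and below them for Wnt2, against 6.73% and 6.30% in the background. The Fzd6 probe set was tested only because the transgenic pools raised its mean over the limit. In the sex by transgene test 0 members passed, 0% of all kept probe sets did, and 0 members against 2.35% in the background had an unadjusted p below 0.05.

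The female and male pools were compared over the 3 groups after the data were seen. In this comparison Wnt5b and Sfrp4 were higher and Wnt5a was lower in the female pools. These 3 members passed by limma, against 8.30% of all kept probe sets (2244), and 15 members, 6 higher and 9 lower in females, had an unadjusted p below 0.05 against 29.7% in the background (12.6% higher and 17.0% lower). Wnt5b 1439373_x_at was higher in females by log2 0.86 ± 0.12 (1.82-fold, limma adjusted p = 0.0301), at 0.67 in the 8 weeks, 1.03 in the 1 week and 0.88 in the control group. Sfrp4 1451031_at was higher in females by 0.63 ± 0.12 (1.55-fold, limma adjusted p = 0.0478), at 0.80, 0.63 and 0.47 in those groups. Wnt5a 1436791_at was lower in females by a difference of -0.57 ± 0.11 (1.49-fold, limma adjusted p = 0.0484), at -0.54, -0.67 and -0.50. In the same order, the male pools were at 5.39, 4.94 and 4.84 for Wnt5b 1439373_x_at and at 4.94, 5.14 and 5.06 for Sfrp4 1451031_at. The means of these male pools were under the limit of 5.15. The Wnt5b and Sfrp4 probe sets were therefore kept only through the female pools, in which they were higher.

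Every group showed the same direction for these 3 probe sets, but the other Wnt5a probe sets did not pass (-0.17 for 1437673_at, limma adjusted p = 0.482, and -0.20 for 1448818_at, adjusted p = 0.398). None of the 3 calls held with no filter on dim probe sets, and the control female and male pools also differed in what their labels say of the genotype, which cannot be told apart from sex in that group. Just short of the threshold were Fzd7 (-0.54, limma adjusted p = 0.0549), Sfrp1 1438620_x_at (-0.55, adjusted p = 0.0648) and Wnt7b (-0.58, adjusted p = 0.0672), all with lower values in females in the 3 groups, and Dkk3 1417312_at (0.68, adjusted p = 0.0789). All 3 groups gave the same direction for 7 members higher in females and 16 lower, against 24.9% and 28.4% in the background, and the median difference was -0.17 against 0.00 over all kept probe sets.

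**Figure D4:**
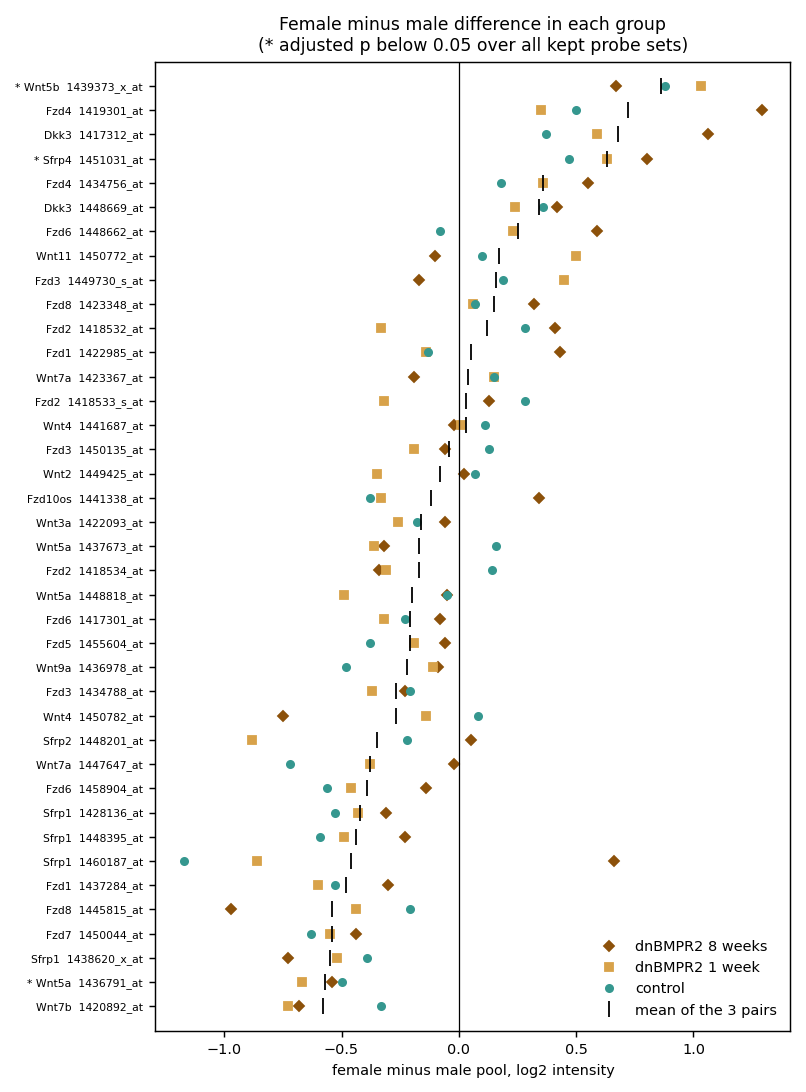
Female minus male log2 difference of each kept member probe set in the 8 weeks, 1 week and control groups, with a black bar at the mean of the 3 and an asterisk where the adjusted p was below 0.05. Wnt5b (0.67, 1.03 and 0.88) and Sfrp4 (0.80, 0.63 and 0.47) were above 0 in all 3 groups, and Wnt5a 1436791_at (-0.54, -0.67 and -0.50) was below 0 in all 3.

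The rest of the pathway was read from 5 gene lists, with the brightest kept probe set for each gene. No gene of these lists passed at 8 weeks or at 1 week. As a background for the counts below, 9875 of all 27022 kept probe sets were higher and 7848 lower than control in both sexes at 8 weeks. Of 23 kept canonical target genes of 30 listed, 6 were higher and 6 lower than control in both sexes at 8 weeks, with a median log2 difference of 0.00. Sp5, a transcription factor induced by beta-catenin, had the largest difference among them. It was at 6.01 and 6.56 in the 8 weeks female and male pools, 4.60 and 4.97 in the 1 week pools, and 4.96 and 5.17 in the control pools. The 8 weeks pools were above all others (1.22 ± 0.15, limma adjusted p = 0.0571). Sp5 passed the limit of 5.15 only through the 8 weeks pools, with means of 6.28 at 8 weeks, 4.79 at 1 week and 5.06 in control. Axin2, a feedback inhibitor often used as a readout of the pathway, was at 7.83 and 7.97 in the 8 weeks pools, 7.90 and 7.91 in the 1 week pools, and 7.75 and 7.66 in the control pools (0.20 at 8 weeks, limma adjusted p = 0.439). Ccn4 differed by 0.77 ± 0.31 (limma adjusted p = 0.233), and Cd44, also expressed by many leukocytes, by 0.61 ± 0.14 (adjusted p = 0.11). Lower than control were Fgf9 (-0.59 ± 0.27, limma adjusted p = 0.267) and Bmp4, a BMP ligand (-0.58 ± 0.16, adjusted p = 0.137). The lowest value of the list was -0.72.

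Of 16 kept genes of Wnt secretion and co-receptors of 20 listed, 5 were higher and 4 lower in both sexes at 8 weeks, with a median of 0.03. Ror2, a receptor of Wnt5a, was at 5.93 and 6.88 in the 8 weeks female and male pools, 5.82 and 6.36 in the 1 week pools, and 5.37 and 6.03 in the control pools (0.70 ± 0.16 at 8 weeks, limma adjusted p = 0.11). Within each sex its order was 8 weeks, 1 week, control, although the groups overlapped. Rspo1, a secreted enhancer of Wnt signalling, was at 6.95 and 7.72 in the 8 weeks pools, 7.87 and 8.63 in the 1 week pools, and 7.63 and 8.57 in the control pools (-0.76 ± 0.14, limma adjusted p = 0.0843). Porcn, the enzyme that attaches the lipid to Wnts, differed by -0.57 ± 0.14 (limma adjusted p = 0.121), with both 8 weeks pools below both control pools.

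Of 8 kept further inhibitors of 12 listed, 3 were higher and 2 lower in both sexes at 8 weeks. Wif1, which binds secreted Wnts, was at 7.88 and 8.04 in the 8 weeks female and male pools, 6.35 and 6.62 in the 1 week pools, and 7.55 and 7.19 in the control pools. Its 1 week pools were lowest (-0.88, limma adjusted p = 0.894) and its 8 weeks pools highest (0.59 ± 0.20, adjusted p = 0.183). Of 35 kept cytoplasmic and nuclear genes of 38 listed, 9 were higher and 11 lower in both sexes at 8 weeks, with a median of 0.01. Ctnnb1, which encodes beta-catenin, differed by 0.01, and Gsk3b, a kinase that marks beta-catenin for breakdown, by -0.60 ± 0.14 (limma adjusted p = 0.115). Of 27 kept genes of the planar polarity and noncanonical branch of 32 listed, 6 were higher and 10 lower, with a median of -0.07, and the largest difference was that of Plcb4, a phospholipase (-0.64 ± 0.14, limma adjusted p = 0.105).

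**Figure D5:**
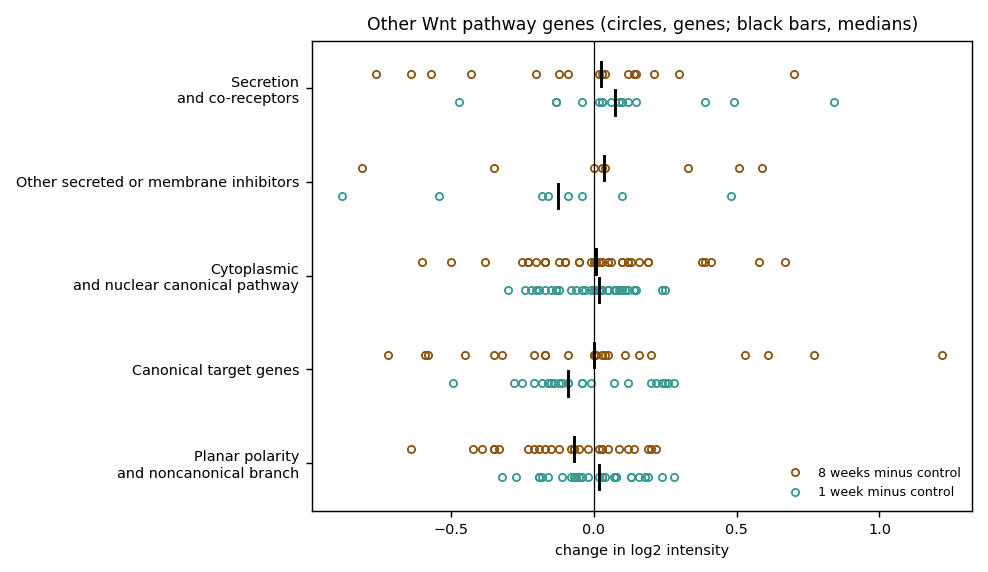
Log2 difference from control of the genes of the 5 pathway lists at 8 weeks and at 1 week, each circle 1 gene by its brightest kept probe set and each black bar a list median. List medians at 8 weeks lay between -0.07 and 0.04, with Sp5 highest at 1.22.

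In whole lung RNA, fewer cells of a type and less RNA per cell cannot be told apart, and the levels of several cell type marker lists differed between the groups at 8 weeks. The tissue label was matched by bright alveolar type 2 markers, whose summed level was 15.08 and 15.07 in the 8 weeks female and male pools, 14.97 and 14.79 in the 1 week pools, and 14.87 and 14.92 in the control pools. Of all 27022 kept probe sets, 9875 were higher and 7848 lower than control in both sexes at 8 weeks. Endothelial markers, relevant to Fzd4, had a median log2 difference of -0.16, with 6 of 8 lower in both sexes. Their summed level was 13.98 and 13.94 in the 8 weeks female and male pools, 14.11 and 14.12 in the 1 week pools, and 14.22 and 14.12 in the control pools. Smooth muscle markers had a median of -0.46, with 7 of 8 lower in both sexes, and summed to 12.91 and 12.85 in the 8 weeks pools, 13.54 and 13.49 in the 1 week pools, and 13.37 and 13.12 in the control pools. Fibroblast markers, relevant to Sfrp1 and Wnt5a, had a median of 0.03, with 4 of 9 higher and 4 lower, and summed to 14.20 and 14.20 in the 8 weeks pools, 14.39 and 14.44 in the 1 week pools, and 14.27 and 14.23 in the control pools.

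Macrophage markers had a median of 1.97, with 7 of 8 higher in both sexes, and neutrophil markers a median of 1.53, with all 6 higher. Of the neutrophil list, Mmp8 and Mmp9, proteases of neutrophil granules, rose by limma (log2 1.96 and 1.52, adjusted p = 0.047 and 0.048). Cell cycle genes had a median of 1.5, with all 6 higher, and Ube2c, a mitotic enzyme, rose (1.39, limma adjusted p = 0.047). Their summed level was 9.85 and 10.19 in the 8 weeks pools, 9.28 and 9.80 in the 1 week pools, and 8.57 and 8.41 in the control pools. Mmp8, Mmp9 and Ube2c were among the 0.596% of all kept probe sets that passed at 8 weeks. With no filter, no sex term or no moderation, no probe set passed. Cardiac muscle markers had a median of -1.70, with 10 of 11 lower in both sexes. Such markers may come from the muscle sleeve of the pulmonary vein or from heart tissue left on the lung, which cannot be told apart here. They summed to 11.40 and 12.72 in the 8 weeks pools, 13.84 and 14.15 in the 1 week pools, and 13.68 and 13.62 in the control pools. The part of these shifts in the values of Fzd4, Sfrp1 and the other members was not tested.

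The genes most like 3 of the singled-out probe sets were found by Pearson correlation over the 6 arrays among other kept genes with an SD of at least 0.5, as a description over 6 pools that share the group differences. Nearest to Fzd4 1419301_at were Ino80d, Eif3c, 4930503L19Rik, Arid5b and Ets1, each at 0.998. Nearest to Sfrp1 1438620_x_at were Racgap1 (0.999), Lgi2 (0.997), Ube2d-ps (0.995), Rab27b (0.989) and Uck2 (0.986). Nearest to Fzd6 1458904_at were Kntc1 and Ccdc74a (both 0.967), Ect2 and Gpr12 (both 0.965), and Lztfl1 (0.961).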

How the data were processed

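RNA from whole lung was measured on 6 arrays, each a pool of 3 mice. The deposited values were signal intensity on a linear scale, 10 to 11513.01. How the authors summarised and scaled them is not given in the sources used here.

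The intensity values the authors deposited were quantile normalized, raised to the floor at the 20th percentile (15.46) and turned into log2, and probe sets with a mean above the 40th percentile were kept. Group differences were fitted with limma 3.58.1 (R 4.3.3) in a model of all 6 arrays with a term for group and a term for sex (2 residual degrees of freedom, prior 2.77) and Benjamini-Hochberg adjustment over 27022 probe sets, called at 0.05. Interaction used a model of transgene, sex and their product. The number of arrays limits the precision, and p-values measure only the spread between these pools, which mixes pool and sex differences.

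Members with a call were named in all pools, together with members whose brightest probe set differed by 1.5-fold or more in both sexes, and between durations those with ranges 2-fold apart. Other members were singled out after their values were seen. Members, gene lists and marker lists were chosen with earlier results of these data known. The female against male comparison was added after seeing the data. Gene names came from the platform annotation: 34945 probe sets had 1 symbol, 932 several and 9160 none. All 38 member symbols matched RefSeq, whose promoter windows were searched on both strands. Figures were drawn with matplotlib 3.10.9 (Python 3.11.15). The group fits were also run on simulated arrays with known changes. The simulation held no difference in response between the sexes, and its outcome is not reported here.

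Alternatives were the deposited scale, median centring, another floor, log2(value + 16), other filters, no suffixed probe sets, 1 value per gene, no sex term, fewer arrays and other variance moderation.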

Additional observations from a re-analysis of the deposited data

How the results depend on the processing

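With 2 pools a group and no replicate pool within a sex, the number of arrays limits the precision. For 22 of the probe set and comparison values in the text, 12 alternatives and 6 fits that each left out 1 array were run. Of the 372 values these gave, 366 kept their direction and 6 reversed. Only the 3 female against male values passed in the main fit, so only these could lose a call. Over the alternatives that kept all arrays, Sfrp4 still passed in 3 of 9, Wnt5a 1436791_at in 3 of 10 and Wnt5b in 6 of 8. At 8 weeks against control, where 0 members passed, 1 passed with arrays centred on their medians (Sfrp1), 1 with the floor at the 40th percentile (Sfrp1), 2 with log2(value + 16) (Fzd4 and Sfrp1), 1 with the filter at the 60th percentile (Fzd4) and 2 with trend and robust moderation (Fzd4 and Sfrp1). Leaving out 1 array gave 0 to 1, the 1 being Fzd4 (-1.22, limma adjusted p = 0.0493) without the male 8 weeks pool. For Fzd4 1419301_at the adjusted p by limma was 0.0435 with log2(value + 16), 0.0448 with the stricter filter and 0.0112 with trend and robust moderation. For Sfrp1 1438620_x_at it was 0.034 with median centring, 0.045 with the higher floor, 0.0446 with log2(value + 16) and 0.0332 with trend and robust moderation. Between 8 weeks and 1 week, 1 member passed with trend and robust moderation (Fzd4, adjusted p = 0.0258). At 1 week, over all transgenic pools and in the sex by transgene test, 0 passed under every alternative run. The last was not run with arrays left out.

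Members at an unadjusted p below 0.05 numbered 3 to 12 at 8 weeks, 1 to 8 at 1 week, 2 to 9 between durations, 2 to 10 over all transgenic pools and 0 to 5 in the sex by transgene test over the alternatives that kept all arrays. With 1 array left out they numbered 5 to 8 at 8 weeks (5 without either control or either 1 week pool), 0 to 8 at 1 week (0 without the male and 1 without the female 1 week pool, 3 without the female and 4 without the male control pool), 1 to 6 between durations (1 without either 1 week pool, 3 without the male 8 weeks pool) and 4 to 9 over all transgenic pools (4 without the male control or the male 1 week pool). Between females and males, where 3 passed, 0 did with no filter, 0 without suffixed probe sets, 6 with trend and robust moderation and 0 with no moderation, and 0 to 2 with 1 array left out. Wnt5a 1448818_at at 1 week reversed to -0.07 as deposited, and with 1 array left out ranged from -0.19 to 0.25 (-0.19 without the male 1 week pool, and -0.08 without the male control pool). With 1 value per gene, Fzd4 at 8 weeks was -0.98, Sfrp1 was 0.66 and Wnt5a was 0.26 where 1448818_at was lower, and Fzd6 was -0.01 where 1458904_at was higher. Sfrp1 1460187_at at 8 weeks ranged from -0.26, without the female control pool, to 1.11, without the male 8 weeks pool. Over all kept probe sets, 161 passed at 8 weeks, against 0 with no filter, no sex term or no moderation, 0 to 1087 with 1 array left out, and 1916 with trend and robust moderation. The labels carry no replicate numbers, and the sex term is the only pairing of pools. Without it, as a fit with no replicate block, 0 members passed in the comparisons with control. The cause of these differences between settings was not tested.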
